A study of Mus musculus with 6 samples.

Results

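The 7 genes described here, *Hmgcs1*, *Idi1*, *Fdps*, *Sqle*, *Lss*, *Srebf2* and *Insig1*, encode 5 enzymes of cholesterol synthesis, the transcription factor SREBP2 and a protein that holds SREBP2 back, and they were picked by name from the 27021 genes in the table of counts. RNA was sequenced from heart tissue of each of 3 Immtfl/fl-Myh6-MCM mice and 3 control mice of genotype Immt+/+-Myh6-MCM, with 1 library per mouse. By their genotype labels, all 6 mice carried Myh6-MCM, a tamoxifen-activated Cre recombinase driven in cardiomyocytes by the *Myh6* promoter. All received 3 tamoxifen injections of 40 mg/kg at 6 weeks of age. Hearts were taken 20 weeks later, at 26 weeks of age, when the Immtfl/fl-Myh6-MCM hearts, in which *Immt* (the gene for the mitochondrial cristae protein Mic60) had been deleted from cardiomyocytes, were in failure. Heart tissue also holds cells in which the Cre is not made, so their *Immt* alleles stay intact.

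Cholesterol is built in the cytosol and endoplasmic reticulum from acetyl-CoA, first through mevalonate to squalene and then, after squalene is oxidised and closed into a ring, through a series of sterols. SREBP2, the protein of *Srebf2*, is held in the endoplasmic reticulum membrane with its escort SCAP by the INSIG proteins while sterols are plentiful, and when sterols run low it is carried to the Golgi, cut by a pair of proteases and released to the nucleus, where it turns on nearly every enzyme of the pathway as well as *Insig1* and its own gene. Since these targets answer to one factor, they are usually read as a group, and the question asked of the counts was whether the 7 genes moved as one in these hearts.

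The libraries held 42301627 to 44151674 counts in control hearts and 49793058 to 53251529 counts in Immtfl/fl-Myh6-MCM hearts. *Immt* lay at 453 to 663 CPM (counts set to a common depth by library total and the TMM factors of edgeR) in control hearts and 23.0 to 39.2 CPM in Immtfl/fl-Myh6-MCM hearts. Mitochondrially encoded genes took 19.5% to 23.3% of the counts in control hearts and 8.20% to 8.85% in Immtfl/fl-Myh6-MCM hearts, and TMM factors were 0.884 to 0.939 and 1.04 to 1.14. Counts assigned to *Esr1*, a part of which is also built into the MCM transgene, numbered 144479 to 165400 in control hearts and 71 to 323 in Immtfl/fl-Myh6-MCM hearts, so the libraries differed in these reads although the labels give the transgene to both groups. The deletion, that difference and heart failure fall in the same 3 hearts and cannot be told apart here. A gene was called higher or lower at an adjusted p under 0.05 in the quasi-likelihood test of edgeR with a log2 fold change (log2FC, Immtfl/fl-Myh6-MCM minus control) beyond 1 or -1, and SE stands for the standard error of that fold change.

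The 7 genes did not move as one. *Sqle* and *Lss*, which carry out adjoining steps of the pathway, rose 6.41-fold and 5.49-fold, *Insig1* fell to 0.399 of its control level, and *Hmgcs1*, *Idi1* and *Srebf2* did not pass the test. *Fdps* had too few counts to enter it. Of the 6 genes tested, 2 were thus called higher, where 9.91% of the 17146 genes tested were, and 1 was called lower, where 10.6% were. Without the fold threshold the same genes of the 6 passed, beside 19.9% of all genes higher and 18.5% lower. The median log2FC of the 6 genes was -0.14, and that of all genes tested was -0.0012. Every Immtfl/fl-Myh6-MCM heart lay above every control heart for 2 of the 6 genes (26.9% of all genes tested) and below for 2 (26% of all genes tested). The RNA came from bulk heart tissue. Fewer cells of a type and less RNA per cell therefore cannot be told apart in any of these values.

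**Figure D1:**
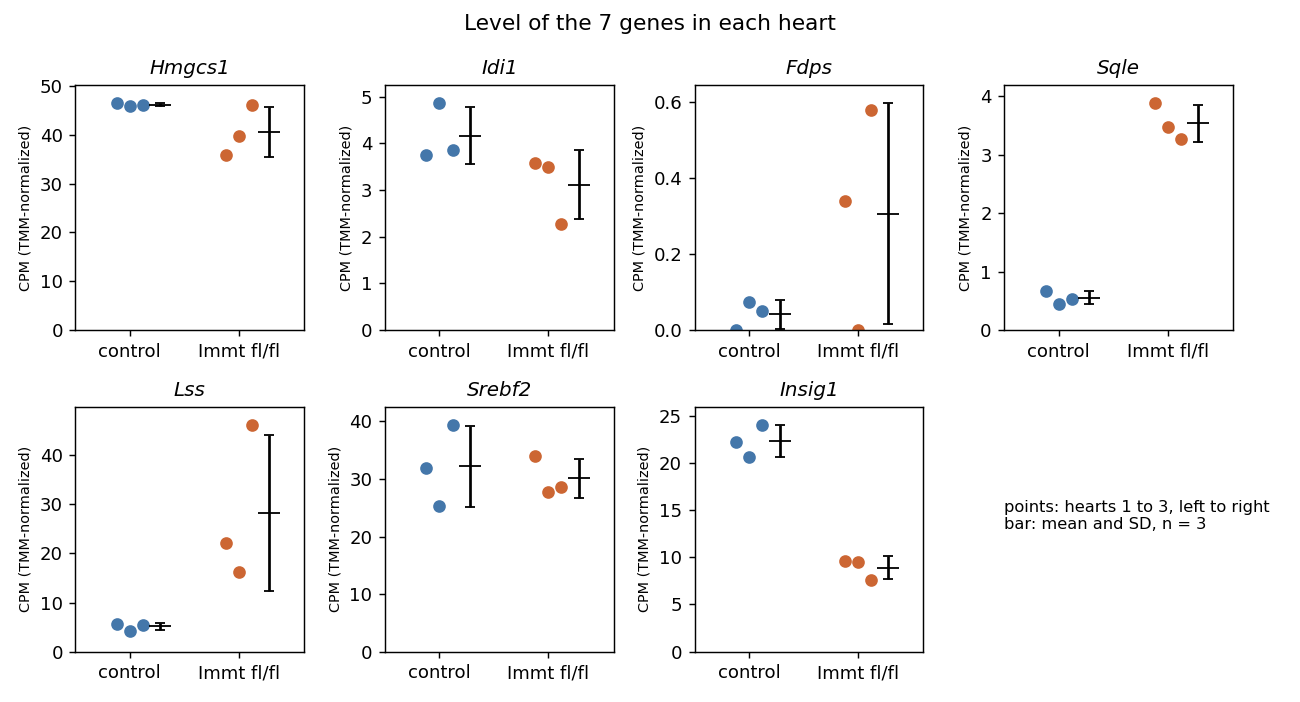
Level of each of the 7 genes in every heart, in TMM-normalized CPM on a linear axis from 0, with control hearts in blue, Immtfl/fl-Myh6-MCM hearts in orange, and the mean and SD of 3 hearts beside them. *Sqle* and *Lss* are higher in all 3 Immtfl/fl-Myh6-MCM hearts, *Insig1* is lower in all 3, and the points of *Hmgcs1*, *Srebf2* and *Fdps* overlap between the groups.

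*Sqle* encodes squalene epoxidase, which adds oxygen to squalene and is a rate-limiting step of the sterol arm. Its gene spans bases 59315077 to 59331192 of the plus strand of chromosome 15 in GRCm38. It had few counts in control hearts, 25, 18 and 22, and 229, 190 and 180 in Immtfl/fl-Myh6-MCM hearts. In CPM this was 0.669, 0.446 and 0.538 against 3.88, 3.48 and 3.26. The Immtfl/fl-Myh6-MCM hearts lay close to one another and the groups were far apart. The mean went from 0.551 ± 0.112 CPM (SD, n = 3) to 3.54 ± 0.316 CPM (SD, n = 3), and the log2FC was 2.68 (SE 0.329, 95% interval 1.94 to 3.42, edgeR adjusted p = 0.000286). No annotated exon of another gene overlaps it. The genes on either side, *Washc5* and *Nsmce2*, had log2FC of 0.41 and 0.55 and passed on adjusted p alone (0.0243 and 0.0482 from edgeR), in the direction of *Sqle*.

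*Lss* encodes lanosterol synthase, which folds oxidised squalene into lanosterol, the first sterol, and so acts directly after the *Sqle* enzyme. It lies on chromosome 10, from 76531588 to 76557138 on the plus strand. Control hearts had 212, 172 and 224 counts, or 5.68, 4.26 and 5.48 CPM. Immtfl/fl-Myh6-MCM hearts had 1306, 889 and 2547 counts, or 22.2, 16.3 and 46.2 CPM. All 3 Immtfl/fl-Myh6-MCM hearts were above the controls, but unlike *Sqle* they were spread widely, with replicate 3 the highest. The mean rose from 5.14 ± 0.763 CPM to 28.2 ± 15.9 CPM (SD, n = 3 each), with a log2FC of 2.46 (SE 0.379, 95% interval 1.59 to 3.33, edgeR adjusted p = 0.00149). Without Immtfl/fl-Myh6-MCM replicate 3 or any other heart it stayed called, at 1.91 to 2.74. An antisense transcript, *4930483K19Rik*, shares 8.16% of the bases of the main *Lss* transcript, and it had 0 counts in control hearts and 8, 5 and 10 in Immtfl/fl-Myh6-MCM hearts. Neighbouring *Mcm3ap* (log2FC 0.02) and *Col6a2* (log2FC -0.96) did not pass the test.

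*Insig1* encodes the endoplasmic reticulum protein that retains SCAP and SREBP2. Being itself a target of SREBP2, it normally moves with the enzymes. It lies on chromosome 5, from 28071363 to 28078662 on the plus strand. Counts were 830, 832 and 983 in control hearts and 569, 520 and 416 in Immtfl/fl-Myh6-MCM hearts, despite the deeper Immtfl/fl-Myh6-MCM libraries. The groups did not overlap, at 22.2, 20.6 and 24.0 CPM against 9.65, 9.51 and 7.54 CPM. *Insig1* fell by 1.32 on the log2 scale (SE 0.166, 95% interval -1.70 to -0.95, edgeR adjusted p = 0.000316), or 2.50-fold, so its direction was opposite to that of *Sqle* and *Lss* in the same hearts. *Insig2*, the second retention protein, was at 54.6 ± 4.31 CPM in control hearts and 53.6 ± 1.47 CPM in Immtfl/fl-Myh6-MCM hearts (SD, n = 3 each), a log2FC of -0.03 with a 95% interval of -0.28 to 0.23.

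*Hmgcs1* encodes cytosolic HMG-CoA synthase, which condenses acetyl-CoA units ahead of mevalonate. It lies on chromosome 13, from about 119690380 to about 119708260 on the plus strand, and had the highest level per kilobase of the 7 genes. Counts were 1739, 1850 and 1892 in control hearts and 2117, 2177 and 2543 in Immtfl/fl-Myh6-MCM hearts. Scaled to depth, control hearts were nearly identical at 46.6, 45.9 and 46.3 CPM, and Immtfl/fl-Myh6-MCM hearts ranged from 35.9 and 39.8 to 46.1 CPM. One Immtfl/fl-Myh6-MCM heart fell within the control range and the others below it. The log2FC was -0.19 (SE 0.12, 95% interval -0.47 to 0.09, edgeR adjusted p = 0.271), an interval that ends far below the changes of *Sqle* and *Lss*. The antisense gene *Gm48342* covers 16.1% of the main transcript and had 14 to 45 counts a heart. Neighbouring *Nim1k*, 1834 bases away on the opposite strand, was called lower (log2FC -1.32, edgeR adjusted p = 0.00376).

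*Idi1* encodes isopentenyl diphosphate isomerase, which makes the pair of isoprene building blocks interconvertible. It lies on chromosome 13, from 8885501 to 8892451 on the plus strand. Counts were 140, 196 and 158 in control hearts and 211, 191 and 125 in Immtfl/fl-Myh6-MCM hearts, or 3.75, 4.86 and 3.86 CPM against 3.58, 3.49 and 2.27 CPM. The Immtfl/fl-Myh6-MCM hearts were all below the controls after scaling, by a narrow margin in replicates 1 and 2. The log2FC was -0.42 (SE 0.281, 95% interval -1.05 to 0.22, edgeR adjusted p = 0.276), so *Idi1* did not pass the test. *Idi1* shares bases with processed copies such as *Gm13502*, which had 2 to 10 counts a heart.

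*Srebf2* itself lies on chromosome 15, from 82147181 to 82205379 on the plus strand. Counts were 1189, 1024 and 1612 in control hearts and 2002, 1518 and 1574 in Immtfl/fl-Myh6-MCM hearts, or 31.8, 25.4 and 39.4 CPM against 34.0, 27.8 and 28.5 CPM. The groups overlapped throughout, and control hearts were spread more widely than Immtfl/fl-Myh6-MCM hearts. The log2FC was -0.10 (SE 0.175, 95% interval -0.49 to 0.30, edgeR adjusted p = 0.695). These counts measure its transcript only, whereas the protein acts after it has been cut. *Srebf1*, the paralog that mainly serves fatty acid synthesis, was also at like levels, 32.2 ± 0.706 CPM in control hearts and 33.4 ± 0.957 CPM in Immtfl/fl-Myh6-MCM hearts (SD, n = 3 each; log2FC 0.06, 95% interval -0.20 to 0.31).

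*Fdps* encodes farnesyl diphosphate synthase, at the branch from which squalene, ubiquinone, dolichol and prenyl groups are all made. It lies on chromosome 3, from 89093588 to 89101959 on the minus strand. Its counts were 0, 3 and 2 in control hearts and 20, 0 and 32 in Immtfl/fl-Myh6-MCM hearts, far fewer than for the enzymes before and after it. One heart of each group had no read, and the other Immtfl/fl-Myh6-MCM hearts were above every control. Pooled over hearts and scaled to depth, the ratio was 7.31 with a 95% interval of 2.94 to 23.4 that covers counting error only. Without Immtfl/fl-Myh6-MCM replicate 3 it was 4.18 and without control replicate 2 it was 12.1. In a fit without the filter on low counts the log2FC was 2.81 (SE 1.33, edgeR adjusted p = 0.148). How reads were assigned between *Fdps* and sequences like it is not given, and its part in this level was not tested. The overlapping protein-coding gene *Gm43738*, on the same strand, shares 81.3% of the bases of the main *Fdps* transcript but has no deposited counts. Processed copies elsewhere are almost identical to the *Fdps* transcript. The copy *Gm3571* (98.9% identity) had 31, 35 and 31 counts in control hearts and 94, 79 and 89 in Immtfl/fl-Myh6-MCM hearts (log2FC 0.92, edgeR adjusted p = 0.0627), more than *Fdps* itself. Summed over *Fdps*, *Gm3571* and *Gm5873*, the level was 1.20, 1.19 and 0.953 CPM in control hearts and 2.21, 1.81 and 2.39 CPM in Immtfl/fl-Myh6-MCM hearts, so every Immtfl/fl-Myh6-MCM heart was above every control heart in the sum. The value for *Fdps* alone is therefore uncertain.

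For a single gene, 3 hearts against 3 allow no two-sided exact permutation p below 0.1. That value was reached by *Sqle*, *Lss*, *Insig1* and *Idi1*, and the exact permutation p was 0.2 for *Hmgcs1*, 0.4 for *Fdps* and 0.7 for *Srebf2*.

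Per kilobase of annotated exon, the order of the mean levels in control hearts was *Hmgcs1* (10.1 CPM per kilobase), *Insig1* (7.21), *Srebf2* (4.48), *Idi1* (1.19), *Lss* (0.476), *Sqle* (0.0994) and *Fdps* (0.00977). In Immtfl/fl-Myh6-MCM hearts it was *Hmgcs1* (8.84 CPM per kilobase), *Srebf2* (4.19), *Insig1* (2.88), *Lss* (2.61), *Idi1* (0.888), *Sqle* (0.639) and *Fdps* (0.0728). *Insig1* thus moved from above *Srebf2* to below it, and *Lss* from below *Idi1* to above it. The labels describe oligo-dT primed libraries, and where along a transcript the reads fell is not given, so levels of genes of unlike length are only roughly comparable.

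A ratio within a heart does not depend on how libraries were scaled, and *Hmgcs1*, well counted and not called, served as the denominator. The log2 ratio of *Sqle* to *Hmgcs1* counts was -6.41 ± 0.282 in control hearts and -3.52 ± 0.306 in Immtfl/fl-Myh6-MCM hearts, and that of *Lss* went from -3.18 ± 0.215 to -0.66 ± 0.648 (SD, n = 3 each). In Immtfl/fl-Myh6-MCM replicate 3, the 2547 counts of *Lss* matched the 2543 of *Hmgcs1*. The ratio of *Insig1* went the other way, from -1.05 ± 0.105 to -2.19 ± 0.374. For *Idi1* and *Srebf2* the ratios overlapped between the groups, with means that differed by -0.24 and 0.11. Because scaling cancels within a heart, these ratios restate the differences between genes seen in CPM and are no separate support for them.

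**Figure D2:**
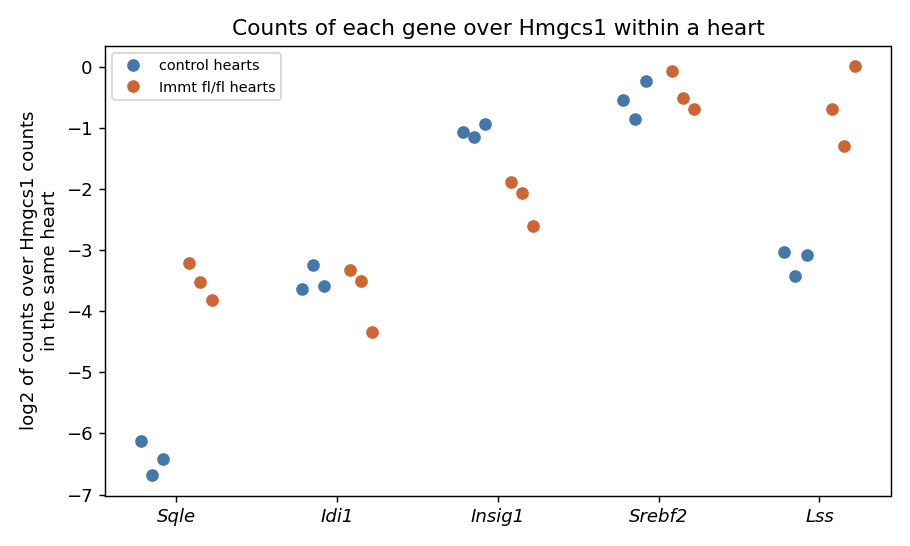
Counts of 5 of the genes divided by the *Hmgcs1* counts of the same heart, on a log2 axis, with 1 point per heart (3 control hearts in blue, 3 Immtfl/fl-Myh6-MCM hearts in orange). *Sqle* and *Lss* sit higher in the Immtfl/fl-Myh6-MCM hearts, *Insig1* lower, and *Idi1* and *Srebf2* overlap. *Fdps* is left out because some hearts had 0 counts.

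The wider pathway was read from a list of its enzymes. Of 20 cholesterol synthesis enzymes tested (the members among them), 3 were called higher and 1 lower, shares near the 9.91% and 10.6% of all genes tested, and their median log2FC was -0.14 beside -0.0012 for all genes. The counts are thus no result about the list, and the values that follow describe single enzymes. In the mevalonate arm, from acetyl-CoA to squalene, 0 of 8 were called higher and 1 lower (median log2FC -0.30). In the sterol arm, 3 of 12 were called higher and 0 lower (median log2FC 0.07), and the arms were not tested against each other. The one called lower was *Fdft1*, squalene synthase, whose product is the substrate of the *Sqle* enzyme. It went from 52.0, 33.7 and 41.8 CPM in control hearts to 12, 11 and 13.4 CPM in Immtfl/fl-Myh6-MCM hearts (log2FC -1.81, SE 0.181, edgeR adjusted p = 9.15e-05). *Fdft1* shares 20.9% of its main transcript with *Ctsb* on the opposite strand, which was not called (log2FC 0.16). Beside *Sqle* and *Lss*, *Msmo1*, a methylsterol oxidase that trims the early sterols, rose from 5.17, 5.13 and 6.06 CPM to 16.3, 13.9 and 16.8 CPM (log2FC 1.52, SE 0.179, edgeR adjusted p = 0.000223). *Fdft1*, *Sqle* and *Lss*, which act in direct sequence, thus changed by -1.81, 2.68 and 2.46 on the log2 scale.

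The other enzymes were not called. *Nsdhl*, the partner of *Msmo1* in removing methyl groups, passed on adjusted p alone (log2FC 0.64, edgeR adjusted p = 0.0286), as did *Mvk*, mevalonate kinase (log2FC -0.80, adjusted p = 0.0495), and *Lbr*, a sterol reductase of the nuclear envelope (log2FC -0.53, adjusted p = 0.00669). The first pair rest on narrow margins: *Nsdhl* no longer passed without control replicate 1, 2 or 3 or Immtfl/fl-Myh6-MCM replicate 1 or 2 (edgeR adjusted p of 0.0648 to 0.0896), with upper-quartile factors (0.0560) or without the low-count filter (0.0548), and *Mvk* no longer passed without control replicate 1, 2 or 3 or Immtfl/fl-Myh6-MCM replicate 1 or 3 (0.0521 to 0.176), without the filter (0.0689) or with the term for *Xist* (0.0670). *Lbr* did not pass with library totals (0.102). *Cyp51*, the demethylase that follows *Lss*, missed the threshold (log2FC 0.58, edgeR adjusted p = 0.0935), and *Dhcr7*, which acts near the end, had a log2FC of -0.75 (edgeR adjusted p = 0.141). *Acat2*, *Pmvk*, *Mvd*, *Tm7sf2*, *Hsd17b7*, *Ebp* and *Sc5d* had log2FC between -0.48 and 0.47 and did not pass.

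**Figure D3:**
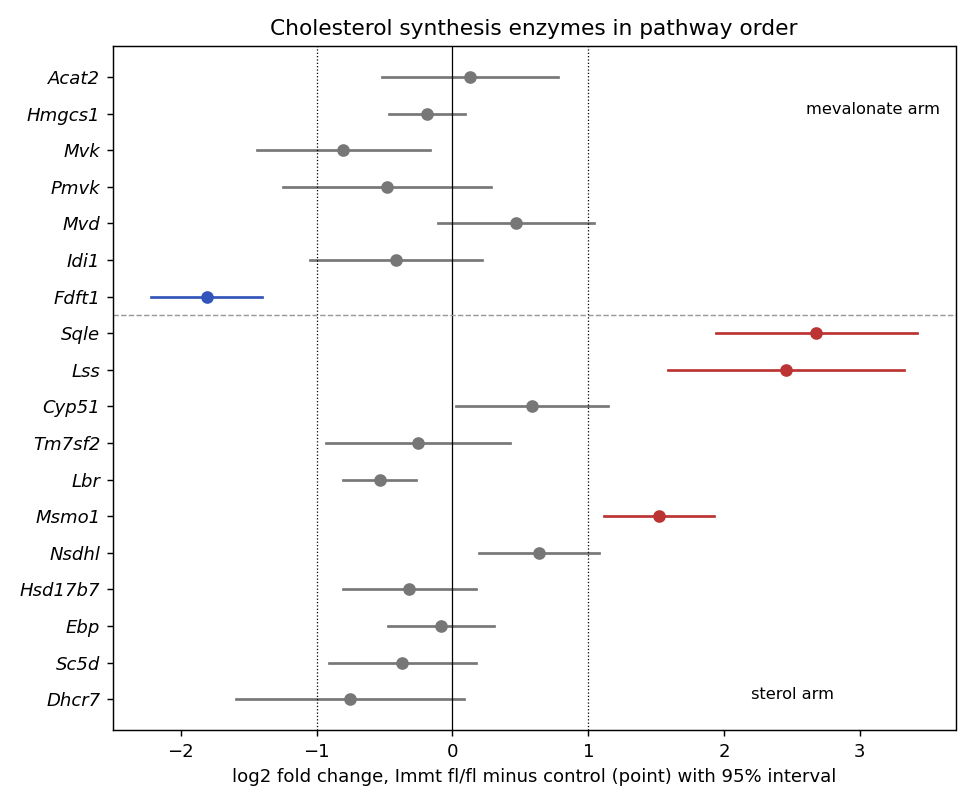
Log2 fold change of 18 of the 20 enzymes tested, Immtfl/fl-Myh6-MCM minus control (3 hearts each), from the start of the pathway at the top to its end, with 95% intervals, the dashed line dividing the mevalonate from the sterol arm and dotted lines at -1 and 1. *Fdft1* (blue, called lower) and *Sqle* and *Lss* (red, called higher, as is *Msmo1*) meet at the divide, and the other enzymes lie between -0.80 and 0.64.

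Among 11 tested genes that control SREBP processing, 2 were called higher and 1, *Insig1*, lower (9.91% and 10.6% of all genes tested), with a median log2FC of 0.06. *Ubxn4*, a membrane protein of endoplasmic reticulum protein degradation, rose (log2FC 1.20, SE 0.144, edgeR adjusted p = 0.000251). *Scap*, the escort of SREBP2, was at 38 ± 2.94 CPM in control hearts and 70.7 ± 1.02 CPM in Immtfl/fl-Myh6-MCM hearts (SD, n = 3 each), a log2FC of 0.90 (edgeR adjusted p = 0.000308) under the fold threshold. The same held for *Mbtps2*, the second of the SREBP proteases (log2FC 0.81, edgeR adjusted p = 0.00117), while *Mbtps1*, the first, had a log2FC of -0.11. With library totals *Scap* and *Mbtps2* passed the fold threshold (log2FC 1.15 and 1.07). So the escort and one protease were higher on adjusted p, the retention protein *Insig1* was lower, and *Srebf2* did not pass. The ubiquitin ligase genes *Rnf139* and *Rnf145* had log2FC of -0.44 and 0.16, the first with an edgeR adjusted p of 0.0359 that rose to between 0.0995 and 0.129 without control replicate 1 or 2 or Immtfl/fl-Myh6-MCM replicate 1 or 2.

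Of 8 other SREBP2 targets tested, 1 was called higher and 1 lower (9.91% and 10.6% of all genes tested), with a median log2FC of -0.53. *Tmem97*, a sterol-binding receptor of the endoplasmic reticulum and lysosome, rose (log2FC 1.26, SE 0.254, edgeR adjusted p = 0.00404). *Npc1l1*, a cholesterol uptake transporter, was called lower on 18, 22 and 23 against 10, 6 and 2 counts (log2FC -2.30, edgeR adjusted p = 0.0236), and with this few counts the call was lost without control replicate 1, 2 or 3 or Immtfl/fl-Myh6-MCM replicate 2 or 3 (adjusted p of 0.0592 to 0.0761). *Stard4*, which carries cholesterol between membranes, had a log2FC of -0.97 (edgeR adjusted p = 0.00440).

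In cholesterol storage, both genes for the enzymes that esterify cholesterol were called higher. *Soat2*, the form known from liver and gut, went from 2, 10 and 14 counts in control hearts to 326, 234 and 316 in Immtfl/fl-Myh6-MCM hearts (log2FC 4.56, SE 0.508, edgeR adjusted p = 0.000162). *Soat1*, the widely expressed form, had a log2FC of 1.05 (edgeR adjusted p = 0.0118), under the fold threshold without control replicate 1 (0.87) or Immtfl/fl-Myh6-MCM replicate 1 (0.83) and with upper-quartile factors (0.95). The other 12 of the 14 transport and storage genes were not called, and the list's median log2FC was 0.22. Of all genes tested, 9.91% were called higher and 10.6% lower. Of 9 genes of the LXR and efflux list, *Apoe*, an apolipoprotein that macrophages release with cholesterol, was called higher (log2FC 1.34, edgeR adjusted p = 0.00322). *Pltp*, a phospholipid transfer protein, was called lower (log2FC -1.40, edgeR adjusted p = 0.00233). The list's median was 0.13, and these counts stand beside the same 9.91% and 10.6% of all genes. None of 4 cholesterol hydroxylases and none of 16 genes of the branches to ubiquinone, dolichol and prenyl groups were called (medians 0.85 and 0.31), and on adjusted p alone 1 and 4 were higher and 0 and 3 lower, beside 19.9% and 18.5% of all genes.

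**Figure D4:**
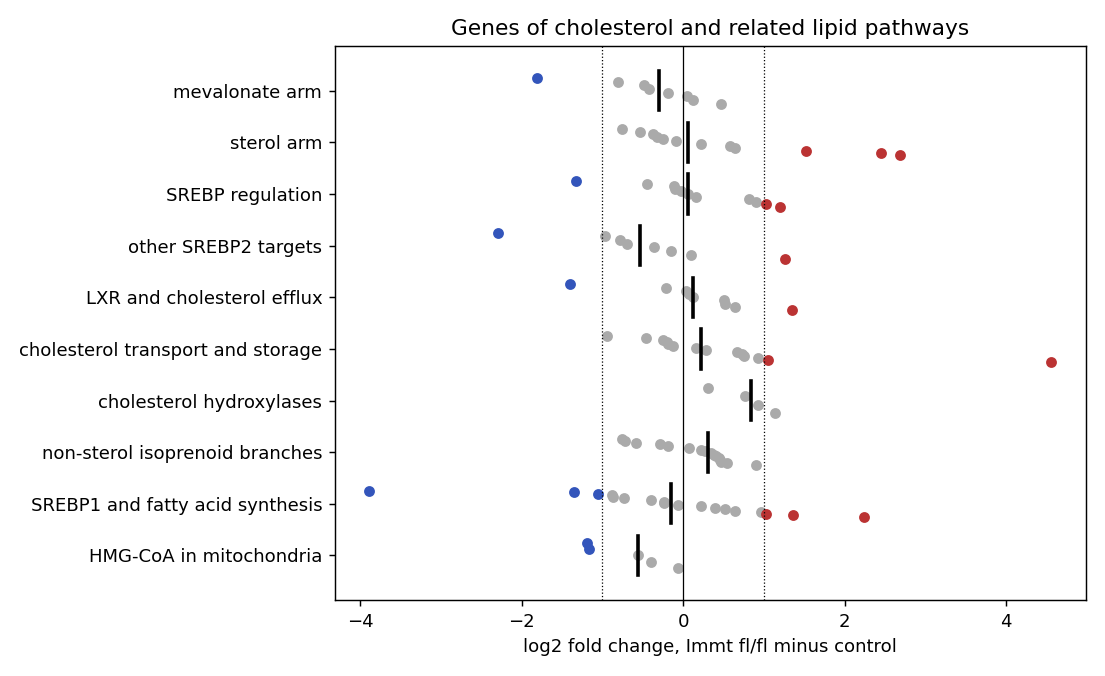
Log2 fold change (Immtfl/fl-Myh6-MCM minus control, 3 hearts each) of every tested gene of 10 lipid gene lists, 1 point per gene, with genes called higher in red, called lower in blue and the rest in grey. Black bars mark list medians, and dotted lines mark -1 and 1. The medians lie between -0.55 and 0.85, and in most lists the called genes, such as *Soat2* (4.56), stand outside a group near 0.

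Of 18 tested genes of fatty acid synthesis, the province of *Srebf1*, 3 were called higher, *Acaca* (log2FC 1.37), *Scd4* (2.24) and *Fads1* (1.03), and 3 lower, *Scd2* (-1.06), *Mid1ip1* (-1.35) and *Pnpla3* (-3.89), beside 9.91% and 10.6% of all genes, and their median log2FC was -0.15. The call of *Scd4* was lost without Immtfl/fl-Myh6-MCM replicate 3 (edgeR adjusted p = 0.0673) or without the low-count filter (0.0665), and that of *Fads1* with upper-quartile factors (log2FC 0.93) or without control replicate 1 (log2FC 0.94) or Immtfl/fl-Myh6-MCM replicate 1 (0.96). *Scd2* lost its call without any one of control replicates 1, 2 and 3 (edgeR adjusted p of 0.0728, 0.0827 and 0.117) or Immtfl/fl-Myh6-MCM replicates 1 (edgeR adjusted p = 0.128) and 3 (log2FC -0.73), without the filter (0.147) and with library totals (0.120). HMG-CoA is also made in mitochondria for ketone bodies. Of 5 genes there *Acat1* and *Oxct1* were called lower (log2FC -1.19 and -1.16), beside 10.6% of all genes. Both lost the call with library totals (log2FC -0.94 and -0.90). *Oxct1* also lost it without Immtfl/fl-Myh6-MCM replicate 3 (-0.99).

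Some cell type markers moved with the groups, and their part in these results was not tested. The summed level of 10 cardiomyocyte markers was 71686 to 74799 CPM in control hearts and 29256 to 42392 CPM in Immtfl/fl-Myh6-MCM hearts. Of these, 6 were called lower and 1 higher, beside 10.6% and 9.91% of all genes tested. The summed level of 11 macrophage markers was 230 to 292 CPM in control hearts and 244 to 596 CPM in Immtfl/fl-Myh6-MCM hearts. Of these, 1 was called higher. Fibroblast sums (control 996 to 1355 against 1130 to 1458 CPM) and adipocyte sums (397 to 535 against 394 to 789 CPM) also overlapped between the groups. Of 8 fibroblast markers, *Postn* was called higher (log2FC 2.44, edgeR adjusted p = 4.03e-05) and 0 were called lower. The adipocyte sums were almost all *Fabp4* (mean 475 CPM in control hearts and 525 CPM in Immtfl/fl-Myh6-MCM hearts). Lymphocyte sums overlapped as well (control 0.733 to 1.53 against 1.12 to 21.3 CPM). The highest was that of Immtfl/fl-Myh6-MCM replicate 3, where *Cd3e*, which was not called, had 1152 counts. Endothelial sums were lower by a narrow margin (control 1043 to 1176 against 790 to 1039 CPM). Of 8 endothelial markers, *Vwf* was called higher (log2FC 1.17, edgeR adjusted p = 0.00239) and 0 were called lower. Replicate 3, with the highest *Lss* of the Immtfl/fl-Myh6-MCM hearts, had the lowest macrophage sum of them (244 CPM) and the highest cardiomyocyte sum. *Sqle* by contrast was even across the 3 hearts. Of 4 smooth muscle markers, *Acta2* was called higher, at 66.1, 21.4 and 133 CPM in control hearts and 586, 504 and 467 CPM in Immtfl/fl-Myh6-MCM hearts, whereas *Myh11* was called lower (log2FC -1.33) and *Tagln* (log2FC -0.10) and *Cnn1* did not pass.

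By shape over the 6 hearts, the listed gene nearest to *Sqle* was *Lss* and the reverse, with a root mean square difference of 0.517 in centred log2 CPM. As many as 335 of the genes tested were as near to *Sqle* and 196 as near to *Lss*, so the likeness singles neither out. The nearest to *Insig1* was *Oxct1* (0.129, with 50 genes as near) and to *Hmgcs1* the cholesteryl ester hydrolase gene *Nceh1* (0.0724, with 61 as near). *Idi1* and *Srebf2* were nearest to *Gramd1a* (0.177, with 282 genes as near) and *Gramd1b* (0.161, with 211 as near), which move cholesterol from the cell membrane.

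Because the 7 genes are read as targets of one factor, the bases before their start sites were searched for the letters that SREBP and its partners are known to bind. RefSeq promoters (GRCm38.p6, 250 bases before to 50 after the start) were at hand for 5 of the 7 genes, *Hmgcs1*, *Idi1*, *Insig1*, *Srebf2* and *Lss*. The stretches before an unmoved, a lowered and a raised gene are shown, with capitals marking a sterol regulatory element (TCACNCCAC, either strand) and the NF-Y box (CCAAT, or ATTGG where it lies on the other strand). They are *Hmgcs1* at chr13:119690101-119690350, *Insig1* at chr5:28071162-28071362 and *Lss* at chr10:76531355-76531587, all on the plus strand.
Hmgcs1: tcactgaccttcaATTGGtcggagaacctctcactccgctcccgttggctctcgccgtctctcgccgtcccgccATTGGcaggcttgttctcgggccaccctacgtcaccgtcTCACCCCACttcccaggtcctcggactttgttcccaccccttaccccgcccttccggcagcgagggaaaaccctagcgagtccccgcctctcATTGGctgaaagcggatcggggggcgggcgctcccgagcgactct
Insig1: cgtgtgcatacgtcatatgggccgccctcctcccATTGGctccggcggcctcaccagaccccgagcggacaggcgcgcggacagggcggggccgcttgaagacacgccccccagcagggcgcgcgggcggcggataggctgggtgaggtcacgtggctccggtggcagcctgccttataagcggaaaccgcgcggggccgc
Lss: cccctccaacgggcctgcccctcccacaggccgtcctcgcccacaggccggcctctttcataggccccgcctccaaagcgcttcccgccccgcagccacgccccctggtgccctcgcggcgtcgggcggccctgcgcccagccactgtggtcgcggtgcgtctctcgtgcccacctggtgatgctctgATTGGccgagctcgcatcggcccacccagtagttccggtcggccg
The element TCACNCCAC was found in *Hmgcs1* alone of the 5, its first base 137 bases before the start, and in 1.2% of all 27025 promoters. With the looser letters TCACNNCAC, which include the former, it was still only *Hmgcs1* of the 5 (3.73% of all promoters), and 3 of 17 cholesterol synthesis enzymes, *Hmgcs1*, *Hsd17b7* and *Msmo1*. CCAAT was in all 5 (37.9% of all promoters) and GGGCGG, the GC box of Sp1, in all 5 (35.9%). CACGTG, an E-box that SREBP can also use, was in *Insig1* (7.24%), and TGATGNAA, an ATF4 composite element, in *Idi1* (4.06%). Thus the gene with the element in this window, *Hmgcs1*, was not called, and *Lss*, which rose, and *Insig1*, which fell, held CCAAT and GGGCGG alike. These matches describe letters in a short window and are not binding sites.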

How the data were processed

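RNA of 6 mouse hearts was sequenced. The tools in the submitters' processing notes are edgeR 4.0.16, featureCounts (Subread 2.1.1), SAMtools 1.22.1 and STAR 2.7.11, for mm10 or GRCm38, without roles. The sources used here give neither a strand setting nor a treatment of molecular identifiers, so reads of a gene and its antisense partner may not be separable. The authors deposited raw counts per gene, which were the input of every comparison. The deposited signal is those counts divided by 1 size factor per library, and the deposited FPKM values are scaled to gene length, and neither was used. Gene lengths were taken from the authors' table. Deposited log2 fold changes and p-values of the authors' own comparison were not used.

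Groups came from the genotype in the labels. Of 27021 genes, 17146 passed filterByExpr of edgeR 4.0.16 in R 4.3.3 (minimum count 10, minimum total 15). Libraries were scaled by TMM, and groups were compared by the robust quasi-likelihood F test with a prior count of 0.125, after a check on simulated data. Adjusted p is by Benjamini-Hochberg across all tested genes. Standard errors were taken as log2FC over the root of the F statistic. P-values measure the spread between the mice, 1 library each. The profile comparison used log2 CPM with a prior count of 2. Pooled count ratios carry a 95% exact interval.

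The 7 genes and all gene lists were chosen with earlier results of these data known. All 7 were to be named in full, with *Immt*, the called genes of each list up to the 6 smallest p-values, any enzyme or SREBP regulator, and the nearest listed gene of each. A few genes named by this rule are counted in their lists but not reported singly. Sequences are from RefSeq (GRCm38.p6) and overlaps and copies from GENCODE on GRCm38.

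Alternatives were DESeq2 1.42.0 with its Wald test, upper-quartile or RLE factors, a mean CPM of 1 or more as the filter or none, a replicate block, a term for the hearts with *Xist* counts over 1000, removal of mitochondrially encoded genes, no fold threshold and leaving out each heart. Scaling by library totals was added after seeing the data.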

Additional observations from a re-analysis of the deposited data

How the results depend on the processing

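The calls on *Hmgcs1*, *Idi1*, *Insig1*, *Lss*, *Sqle* and *Srebf2* were the same under every alternative run, 96 gene and setting pairs in all. Scaling by library totals alone, which was chosen after seeing the data, moved the median log2FC of all genes by 0.25 and turned the uncalled values of *Hmgcs1* and *Srebf2* to 0.06 and 0.16, with *Insig1* still lower at -1.06 (adjusted p = 0.00180 from edgeR). Under it 2541 genes were called higher and 1241 lower, 67.2% of the calls being higher beside 48.3% (1699 and 1818) with TMM, so the balance between directions over all genes depends on scaling. Upper-quartile factors moved the median by -0.10 and gave 1444 higher and 2129 lower.

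Without the fold threshold, 3418 genes were higher, 3172 lower, and 4 cholesterol synthesis enzymes were called higher and 3 lower. When single hearts were left out, 1535 to 1752 genes were called higher and 1494 to 1761 lower, the 7 genes gave 2 to 3 called higher, and the enzymes gave 3 to 4 called higher and 1 to 2 called lower. The third of the 7 was *Fdps* without Immtfl/fl-Myh6-MCM replicate 2, its heart with 0 counts (log2FC 3.38, adjusted p = 0.0377 from edgeR), and the second enzyme called lower was *Dhcr7* without control replicate 2 (log2FC -1.05, adjusted p = 0.0356 from edgeR). Of the other listed genes, 27 pairs of gene and setting lost a call and 9 gained one.

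The labels give both groups the replicate numbers 1 to 3. Deviations from the group means of same-numbered hearts correlated at 0.014, -0.038 and 0.014 across genes. Low values across all genes cannot exclude a source shared by same-numbered hearts. Replicate 3 was the heart with high *Xist* counts in both groups (control 11605, Immtfl/fl-Myh6-MCM 20811), and the other hearts had 4 to 16. Immtfl/fl-Myh6-MCM replicate 3 was also the heart with the highest *Lss*. With the term for *Xist* the log2FC of *Lss* was 2.33. With the replicate number as a block, 1574 genes were called higher and 1682 lower, and 2 and 1 of the 7 genes, as without it. Under the block *Mvk*, *Nsdhl* and *Rnf139* no longer passed on adjusted p alone (0.105, 0.0784 and 0.0783 from edgeR), nor *Npc1l1* (0.0544).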
